A study of Mus musculus with 30 samples.

Results

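Chaperone and unfolded protein response genes were followed in RNA from mouse haematopoietic stem cells, the rare bone marrow cells that renew the blood. The gene set holds 38 of the 17562 genes of the count table, listed by symbol and found in the table through the gene identifiers that the authors' deposited tables pair with symbols. All 38 were found, and all 38 passed the filter on low counts that left 16068 genes for testing. They fall into 26 genes of the endoplasmic reticulum (ER), 10 cytosolic heat shock genes and 2 mitochondrial chaperonin genes. The ER genes were divided into 10 lumen chaperones and co-chaperones, 4 protein disulfide isomerases, 8 sensors, transcription factors and outputs of the unfolded protein response, and 4 genes of ER-associated degradation.

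Bone marrow of male mice was sorted by flow cytometry, and some of the mice had been joined by parabiosis, surgery that gives a pair of mice a shared circulation. Young mice were 8 to 12 weeks old at the procedure, old B6 mice 22 months and old BoyJ mice 21 months; BoyJ is a congenic relative of B6 that carries another form of the blood cell surface protein CD45. The 7 conditions were young unjoined mice (YCNT, 7 libraries, 3 B6 and 4 BoyJ), young mice joined to young (YISO, 4 libraries, 2 of each strain), young mice joined to old (YHET, 2 libraries, BoyJ), old unjoined mice (OCNT, 4 libraries, 3 B6 and 1 BoyJ), old mice joined to old (OISO, 6 libraries, 5 B6 and 1 BoyJ), old mice joined to young (OHET, 4 libraries, B6) and old B6 cells that had lodged in the marrow of the young partner (OHETX, 2 libraries). The labels do not say whether libraries of a group came from separate mice or from pools, nor which mice formed a pair, so p-values measure the spread between these libraries.

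Chaperones bind unfolded proteins and help them fold. In the ER, the chaperone BiP, encoded by Hspa5, holds the sensors IRE1, PERK and ATF6 in check; when unfolded protein builds up the sensors are released, IRE1 splices the Xbp1 transcript, PERK slows translation and favours that of Atf4, and cleaved ATF6 enters the nucleus, which together raise ER chaperones and the degradation machinery. In the cytosol and nucleus a separate response runs through heat shock factor 1 (Hsf1), which raises the inducible HSP70 genes and their partners. Haematopoietic stem cells are known for a low rate of protein synthesis and for a strong dependence on protein quality control.

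The known binding elements of these pathways can be read in the promoters, a feature that does not rest on expression. Among the members, both forms of the ER stress response element stood in ER genes only. A heat shock element, searched as exact units only, stood in 1 cytosolic gene and in both mitochondrial chaperonin genes. Elements with a changed base were not searched, so a member without a match may still hold one. RefSeq promoter sequences (GRCm38.p6, 250 bases before to 50 after each annotated start) were at hand for 31 of the 38 members and for 27025 genes in all. The ER stress response element, CCAAT and CCACG with 9 bases between them, stood on either strand in 7 of 23 ER members (30.4%), against 37 of all 27025 genes (0.137%). The matches are given 5′ to 3′ on the strand that carries them, with the matched letters in capitals, and positions count from the annotated start.
Hspa5, from -65 to -47: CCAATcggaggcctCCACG
Hsp90b1, from -212 to -194: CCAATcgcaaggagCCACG
Hsp90b1, from -107 to -89: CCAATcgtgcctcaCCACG
Calr, from -162 to -144: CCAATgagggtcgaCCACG
Canx, from -145 to -127: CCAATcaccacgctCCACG
Dnajc3, from -105 to -87: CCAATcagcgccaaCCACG
Pdia6, from -98 to -80: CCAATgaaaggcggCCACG
Syvn1, from -44 to -26: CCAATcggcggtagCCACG

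The second form, ATTGG and CCACG with 1 base between them, stood in 2 of 23 ER members (8.7%) and in 12 of all genes (0.0444%).
Herpud1, from -52 to -42: ATTGGgCCACG
Dnajb11, from 8 to 18: ATTGGcCCACG

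A heat shock element, here GAA and TTC in alternation 3 times with 2 bases between units, stood in none of the 23 ER members, in 1 of 6 cytosolic members with a promoter (16.7%, Hsph1), and in 3 of the 31 members (9.68%) against 179 of all genes (0.662%). The other matches were in Hspe1 and Hspd1, which share 1 divergent promoter and carry the same site read from either side.
Hsph1, from 16 to 28: TTCtgGAAagTTC
Hspe1, from -89 to -77: TTCtaGAAccTTC
Hspe1, from -84 to -72: GAAccTTCcgGAA

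The XBP1 letters TGACGTGG and the ATF4 composite letters TGATGNAAT were found in no member's window, against 0.714% and 1.08% of all genes. The CCACG of both ER elements also lies within the reverse complement of the XBP1 letters. A match is a description of sequence, not a bound site. Elements and members were both taken as known parts of these pathways, so the shares are a description with no test. The 250 bases before the start are shown for Hspa5, the classical ER target, on the plus strand at chr2:34771840-34772089, with its element in capitals, and for Ppp1r15a, the member on which the age result turned, on the minus strand at chr7:45526269-45526518, where none of the 5 patterns matched.
Hspa5: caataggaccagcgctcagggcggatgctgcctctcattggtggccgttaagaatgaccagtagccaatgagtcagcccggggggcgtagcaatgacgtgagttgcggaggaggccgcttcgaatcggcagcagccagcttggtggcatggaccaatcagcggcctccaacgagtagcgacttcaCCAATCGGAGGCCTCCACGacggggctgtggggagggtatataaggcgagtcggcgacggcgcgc
Ppp1r15a: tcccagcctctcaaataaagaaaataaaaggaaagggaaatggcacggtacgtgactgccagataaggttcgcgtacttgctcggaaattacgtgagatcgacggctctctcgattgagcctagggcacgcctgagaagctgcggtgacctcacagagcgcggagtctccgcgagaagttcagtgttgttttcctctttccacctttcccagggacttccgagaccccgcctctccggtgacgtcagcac

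Sequencing depth and identity of the libraries were checked before the members were read. Total counts ran from 7659468 (OHETB6X replicate 1) to 30932977 (YB6CNT replicate 3). Of the 29 libraries, 19 had a title and a description that named the same column of the table and 10 had labels that named different ones; columns were taken by the code in the title, and both OHETX libraries were among the 10. Of the 14 genes listed as stem cell markers, Kit, Mecom and Hlf were high throughout. Kit was 652 to 1051 CPM (the counts of a gene scaled by its library's total), Mecom 314 to 543 and Hlf 608 to 1393. Other genes of that list were lower, among them Flt3 at 9.80 to 63.8 CPM, Hoxb5 at 0.417 to 11.4 and Cd48 at 0 to 7.38. Markers of B and plasma cells were low but not absent. The 7 B cell markers in the table summed to 9.09 to 53.5 CPM, mostly Cd79b (7.06 to 30.4), with Pax5 at 0 in 25 libraries and Cd79a in 22. The 6 plasma cell markers summed to 0.038 to 51.1 CPM, with Mzb1 at 0 in 25 libraries, Jchain reaching 21.2 and Prdm1 49.4. The summed level of 9 neutrophil and granulocyte progenitor markers was 2612 CPM in OHETB6X replicate 1 and between 42.9 and 840 in the other 28 libraries. The summed level of 22 immediate early genes, which respond within minutes to stimuli including cell isolation, was 4359, 4531 and 4870 in the 3 OB6CNT libraries and 4615 in OHETB6X replicate 1, against 439 to 1925 in the other 25.

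**Figure D1:**
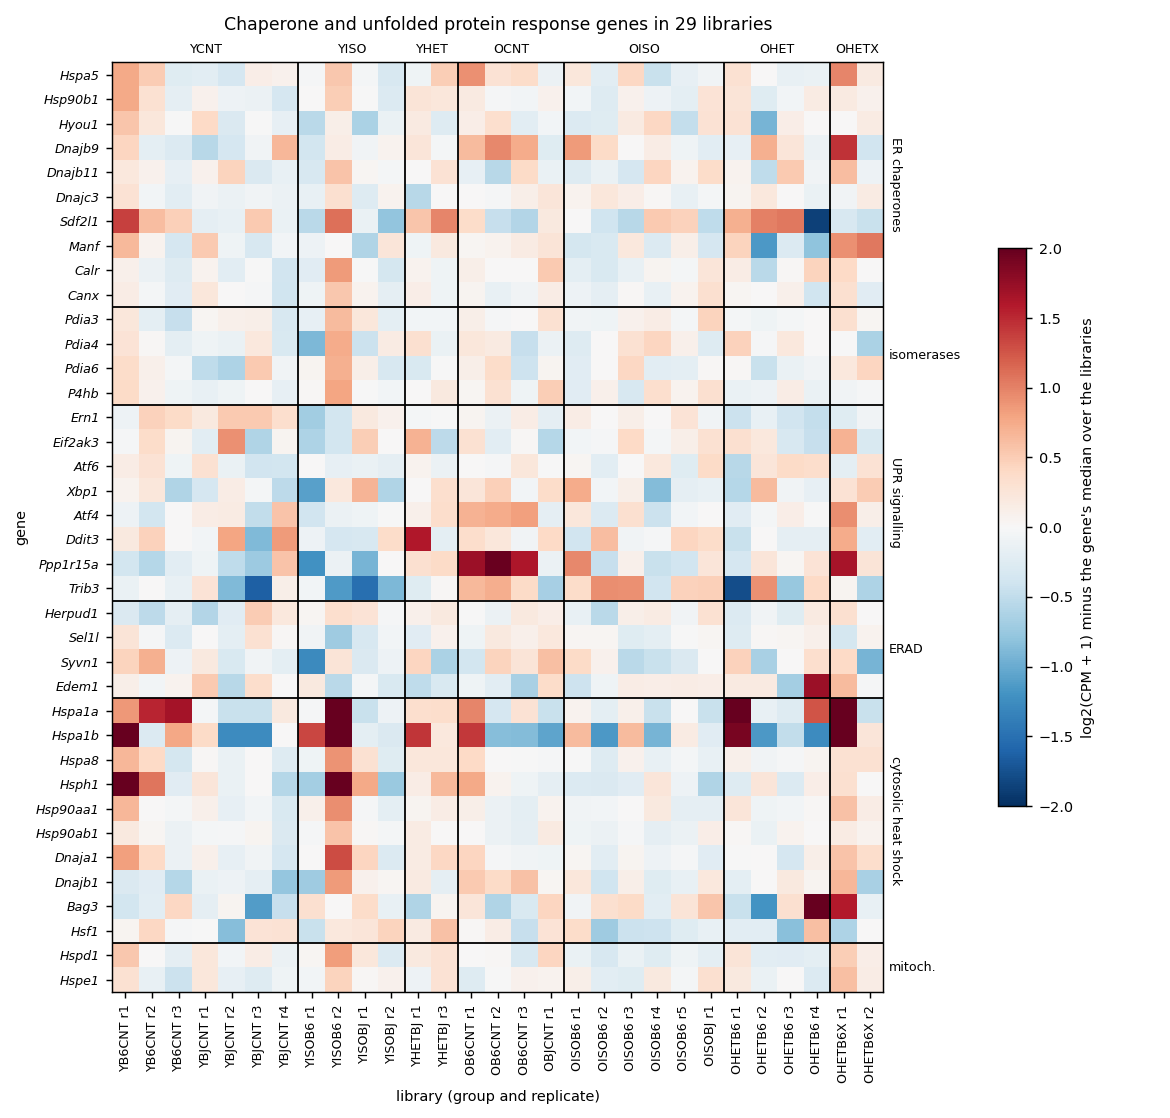
Levels of the 38 genes (vertical axis, grouped by role) in 29 libraries (horizontal axis, grouped by condition), as log2(CPM + 1) minus each gene's median over the libraries; red is above and blue below the median. Ppp1r15a is red in the 3 OB6CNT libraries, and Hsph1 and other cytosolic heat shock genes are red in YB6CNT replicate 1 and YISOB6 replicate 2.

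The levels of the members spanned a wide range. Per kilobase of merged exons, the cytosolic HSP90 gene Hsp90ab1 had the highest mean level of the 38 (895 CPM per kb over 29 libraries), followed by the constitutive HSP70 gene Hspa8 (475), Hsp90aa1 (409), the mitochondrial chaperonin Hspd1 (212) and the ER HSP90 gene Hsp90b1 (203). Within the ER, Hsp90b1 was followed by the isomerase Pdia3 (185), the membrane-bound lectin chaperone Canx (163), Hspa5 (106) and Calr (97.1). Calr is the soluble counterpart of Canx. The lowest levels per kb were those of the inducible HSP70 genes Hspa1a (0.558) and Hspa1b (1.18) and of the stress pseudokinase gene Trib3 (1.32). Library to library, Hsp90ab1 and the co-chaperone Dnajc3 varied least, with coefficients of variation of 12.0% and 12.4%. Hspa1a (227%), Hspa1b (156%), the HSP70 co-chaperone Bag3 (75.6%), the HSP110 gene Hsph1 (72.4%) and Ppp1r15a (70.4%) varied most.

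Across the comparisons, 1 of the 38 genes passed the test in 1 contrast between conditions: Ppp1r15a rose with age in unjoined mice. That rise rested on the 3 old B6 libraries, and the difference was -0.001 without them. A call here is an adjusted p under 0.05 in edgeR's quasi-likelihood test with Benjamini-Hochberg adjustment over all 16068 genes. For age in unjoined mice (OCNT against YCNT) this was 1 member of 38, beside 2.11% of all genes called; 4 members had an unadjusted p under 0.05, beside 11.7% of all genes. For age in isochronic mice (OISO against YISO) edgeR called 0 members beside 1.45% of all genes, and 9 members had an unadjusted p under 0.05 beside 13.1%; DESeq2 called 1 and limma-voom 0.

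Joining gave no member by edgeR in young mice (YISO against YCNT; 0% of all genes called, 3 members and 10.2% of genes unadjusted; DESeq2 0, limma-voom 0). In old mice (OISO against OCNT) edgeR also called 0 members beside 0% of genes, with 3 members and 4.21% of genes unadjusted; DESeq2 gave 0 members and limma-voom 2, Ppp1r15a and Atf4. The age of the partner gave 0 members in old mice (OHET against OISO; 0% of genes called, 3 members and 8.51% of genes unadjusted) and 0 in young mice (YHET against YISO; 0% called, 0 members and 5.99% of genes unadjusted), in both cases also 0 by DESeq2 and limma-voom. All OHET libraries were B6 and both YHET libraries BoyJ, so these contrasts rest on the strain term fitted across the other conditions.

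Old cells lodged in young marrow gave 0 members by edgeR against old cells in their own marrow (OHETX against OHET; 0.218% of genes called; 6 members and 13.6% of genes unadjusted; DESeq2 1, limma-voom 0) and 0 against old isochronic cells (OHETX against OISO; 0.187% called; 6 members and 13% unadjusted; DESeq2 2, limma-voom 0). The test of whether the age difference itself changed with joining called 0 members (0% of genes; 3 members and 5.18% of genes unadjusted; 0 by DESeq2 and limma-voom). Between the strains edgeR called 0 members (0.0124% of genes; 7 members and 6.78% of genes unadjusted; DESeq2 1, limma-voom 0). The joint test of any difference among the 7 conditions called 1 member, Ppp1r15a (adjusted p 0.0129), beside 3.38% of genes, and 7 members had an unadjusted p under 0.05 beside 18.6% of genes. Without OB6CNT replicate 2 the joint test called no member.

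Ppp1r15a (ENSMUSG00000040435, chr7:45522916-45526268 on the minus strand) encodes GADD34, the phosphatase subunit that removes the phosphate placed by PERK and related kinases on the translation factor eIF2 and so restarts translation. Its level was 189, 229 and 178 CPM in the 3 OB6CNT libraries and 52.7 in the OBJCNT library. In the 7 young unjoined libraries it was 34.2 at the lowest, 44.2 at the median and 85.9 at the highest, the last in YBJCNT replicate 4. The 3 old B6 libraries thus lay above every young unjoined library, while the old BoyJ library lay inside the young range, so the groups overlapped.

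With strain in the fit, Ppp1r15a rose with age in unjoined mice by 1.69 on the log2 scale (SE 0.36, edgeR adjusted p 0.00761), from a mean of 49.4 ± 17.4 CPM (SD, n = 7) to 162 ± 76.2 (SD, n = 4). In bulk RNA a change in the number of expressing cells and a change in RNA per cell cannot be told apart. Title and description named the same column for all 4 OCNT libraries but for 4 of the 7 YCNT libraries; in the 19 libraries where they met, the difference was 1.62. The rise rested on the 3 OB6CNT libraries: without them the difference was -0.001, and in B6 libraries alone it was 2.17. In the same comparison 22 of 22 immediate early genes had a positive difference (median 2.29 on the log2 scale) and 25 of 25 cell cycle genes a negative one (median -0.73). The part of either in the Ppp1r15a result was not tested.

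In the joined conditions Ppp1r15a did not pass the test. It was 24.3, 52.8, 29.5 and 57.2 CPM in the 4 YISO libraries and between 41.5 and 113 in the 6 OISO libraries with a median of 52.5, a log2 difference with age of 0.57 (SE 0.36, adjusted p 0.549). It was 44.9, 67.7, 58.8 and 69.4 CPM in OHET, 72.0 and 74.8 in YHET, and 182 and 68.5 in OHETX. Apart from OISOB6 replicate 1 (113), the OISO, OHET and YHET libraries thus reached at most 74.8 CPM, and the 2 OHETX libraries stood far apart. OISO against OCNT gave -1.39 (SE 0.34, adjusted p 0.465), and the test of a different age effect with and without joining gave -1.12 (SE 0.48, adjusted p 0.916), so the age effects were not shown to differ.

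**Figure D2:**
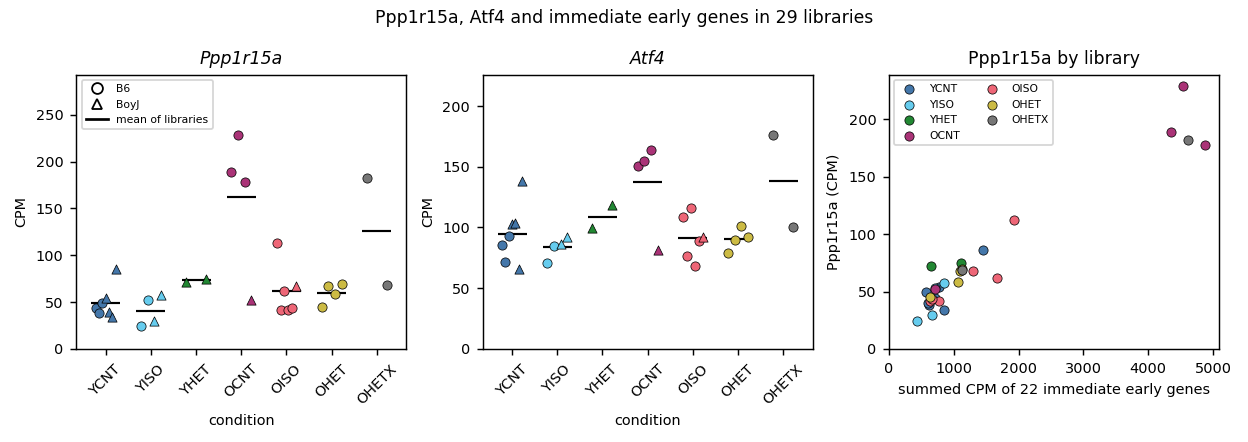
Left and centre, CPM of Ppp1r15a and Atf4 (vertical axes) in the 7 conditions (horizontal axes), 1 point per library, circles B6, triangles BoyJ, bars the mean of libraries. Right, Ppp1r15a (CPM) against the summed CPM of 22 immediate early genes: 4 libraries, 3 OCNT and 1 OHETX, stand at 4359 to 4870 summed CPM and 178 to 229 CPM of Ppp1r15a, and the other 25 reach at most 1925 and 113.

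Across the other 7 genes of unfolded protein response signalling no call was made, and in unjoined mice 6 of the 8 had a positive and 2 a negative age difference, with a median of 0.23 against -0.02 over all genes. In isochronic mice 8 of 8 were positive with a median of 0.28 against 0.003 over all genes. Atf4, the transcription factor translated when eIF2 is phosphorylated, followed Ppp1r15a by library: it was 151, 155 and 163 CPM in OB6CNT and 81.3 in OBJCNT, against 65.7 to 138 with a median of 92.9 in YCNT. As with Ppp1r15a, the 3 old B6 libraries stood above all young unjoined ones and the BoyJ library did not. The age difference of Atf4 was 0.56 (SE 0.20, adjusted p 0.195), and OISO against OCNT gave -0.58 (SE 0.20, adjusted p 0.816); limma-voom called both.

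Ern1, which encodes the sensor and Xbp1-splicing enzyme IRE1, was not called in any comparison. Its mean was highest in the young unjoined libraries (94.6 to 146 CPM, median 132) and the YISO libraries, at 61.9, 78.2, 116 and 107, overlapped with them, a difference of -0.51 (SE 0.14, adjusted p 0.258). OHET libraries, at 74.9, 90.7, 77.2 and 72.6 CPM, all lay below every OISO library (96.2 to 122, median 106), a difference of -0.42 (SE 0.14, adjusted p 0.475). The share of all genes that separated OHET from OISO was not counted, so this order is not read as a result about Ern1. The age difference of Ern1 was -0.31 (SE 0.14) in unjoined and 0.31 (SE 0.15) in isochronic mice, and their difference of 0.62 (SE 0.20) had an adjusted p of 0.899. The joint test over conditions gave Ern1 an adjusted p of 0.0569, the next smallest of the members after Ppp1r15a.

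The other sensors were not called: Atf6 ran from 69.4 to 134 CPM and the PERK gene Eif2ak3 from 17.7 to 53.0 over 29 libraries, with age differences of 0.05 (SE 0.17) and -0.18 (SE 0.29) in unjoined mice. Xbp1 ran from 28.9 to 105 CPM, lowest in YISOB6 replicate 1 and highest in OISOB6 replicate 1; its spliced and unspliced forms are not separated in gene counts. The outputs Ddit3, which encodes the proapoptotic factor CHOP (2.52 to 18.8 CPM), and Trib3 (0.086 to 6.07 CPM) were low. Trib3 gave a difference of 1.82 (SE 0.77, adjusted p 0.281) with age in isochronic mice and 0.47 (SE 0.74) in unjoined mice.

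Among other targets of the integrated stress response, the wider program that Atf4 serves, 28 genes were tested and 1 rose with age in unjoined mice: Nupr1, a small stress-induced chromatin protein, by 2.52 on the log2 scale (SE 0.30, adjusted p 3.77e-06). Nupr1 also rose in isochronic mice, by 1.71 (SE 0.33, adjusted p 0.0044). The medians of the 28 genes were 0.08 and -0.13 in these comparisons. These genes include the amino acid synthesis and transfer RNA charging enzymes, of which none was called. Immediate early genes, tested as 22, gave 7 that rose with age in unjoined mice and 0 that fell, among them Klf6 by 1.70 (SE 0.26, adjusted p 0.000199), Junb by 2.47 (SE 0.43, adjusted p 0.00118), Jun by 2.35 (SE 0.43, adjusted p 0.00244) and Ier2 by 2.07 (SE 0.48, adjusted p 0.0145).

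No ER lumen chaperone passed the test for age. Hsp90b1, the ER member of the HSP90 family, had the highest mean level of them (817 CPM) and was 879, 765, 748 and 824 CPM in OCNT against 614 to 1314 with a median of 729 in YCNT. It was 778, 1099, 778 and 640 in YISO, 929 and 915 in YHET, 650 to 942 with a median of 738 in OISO, 933, 655, 749 and 873 in OHET, and 881 and 828 in OHETX. All the other libraries lay within the range of the young unjoined ones. The age difference of Hsp90b1 was -0.10 (SE 0.15) in unjoined and -0.15 (SE 0.16) in isochronic mice.

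Hspa5 (ENSMUSG00000026864, chr2:34771970-34777547 on the plus strand), whose induction is the usual readout of ER stress, was 316 to 677 CPM with a median of 423 in YCNT and 749, 485, 512 and 365 in OCNT. It was 391, 582, 388 and 318 in YISO, 292 to 530 with a median of 366 in OISO, 377 and 560 in YHET, and 492.5, 398, 361 and 362 in OHET. These ranges overlapped, and the age differences were 0.12 (SE 0.19) in unjoined and -0.21 (SE 0.20) in isochronic mice. OISO against OCNT gave -0.43 (SE 0.19, adjusted p 1).

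Over the 10 lumen chaperones, 6 had a positive and 4 a negative age difference in unjoined mice (median 0.02) and 3 and 7 in isochronic mice (median -0.09), with 0 calls in either. Dnajb9, the co-chaperone ERdj4 of BiP and a target of spliced Xbp1, was 106, 133 and 115 CPM in OB6CNT and 57.7 in OBJCNT, against 46.1 to 108 with a median of 59.0 in YCNT. Its 3 old B6 libraries were thus near or above the top of the young range; the age difference was 0.48 (SE 0.29, adjusted p 0.572). Dnajc3, an inhibitor of eIF2 kinases and co-chaperone of BiP, stayed within 149 to 272 CPM in 29 libraries, with age differences of 0.11 (SE 0.12) and 0.02 (SE 0.12). The lectin chaperones Calr and Canx gave 0.29 (SE 0.18) and 0.05 (SE 0.14) in unjoined mice.

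The isomerases, which form and rearrange disulfide bonds, were led by Pdia3 (mean 582 CPM), partner of the lectin chaperones. It was 607, 555, 562 and 693 CPM in OCNT against 409 to 655 with a median of 580 in YCNT. It was 502, 872, 657 and 492 in YISO, 543 and 542 in YHET, 529 to 766 with a median of 571 in OISO, 545, 531, 544 and 567.5 in OHET, and 700 and 576 in OHETX. The single high value, 872, was that of YISOB6 replicate 2, which was also highest of the 29 libraries for Pdia4, Pdia6 and P4hb. With age, 2 of the 4 isomerases were positive and 2 negative in unjoined mice (median 0.09) and 0 and 4 in isochronic mice (median -0.12), none of them called.

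Degradation from the ER, which returns misfolded proteins to the cytosol for the proteasome, was led by Sel1l, the adaptor of the ubiquitin ligase Syvn1 (mean 155 CPM). It was 150, 183, 172 and 185 CPM in OCNT against 132 to 198 with a median of 159 in YCNT. It was 151, 97.2, 128 and 154 in YISO, 137 and 169 in YHET, 134 to 164 with a median of 161 in OISO, 133, 161, 163 and 172 in OHET, and 125 and 168 in OHETX. The lowest library was again YISOB6 replicate 2, here at the opposite end from the isomerases. YISO against YCNT gave -0.29 (SE 0.13, adjusted p 0.442). Edem1, a mannosidase-like protein that picks substrates for degradation, was 140 CPM in OHETB6 replicate 4 and at most 65.5 in the other 28 libraries, and Herpud1 stayed between 20.3 and 44.2.

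Beyond the members, 40 further ER folding, degradation and secretory genes were tested. In unjoined and in isochronic mice 0 of them were called for age, with medians of 0.07 and -0.01. The 26 ER members as a whole had medians of 0.08 in unjoined mice (17 positive, 9 negative) and 0.05 in isochronic mice (14 and 12), against -0.02 and 0.003 over all genes.

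**Figure D3:**
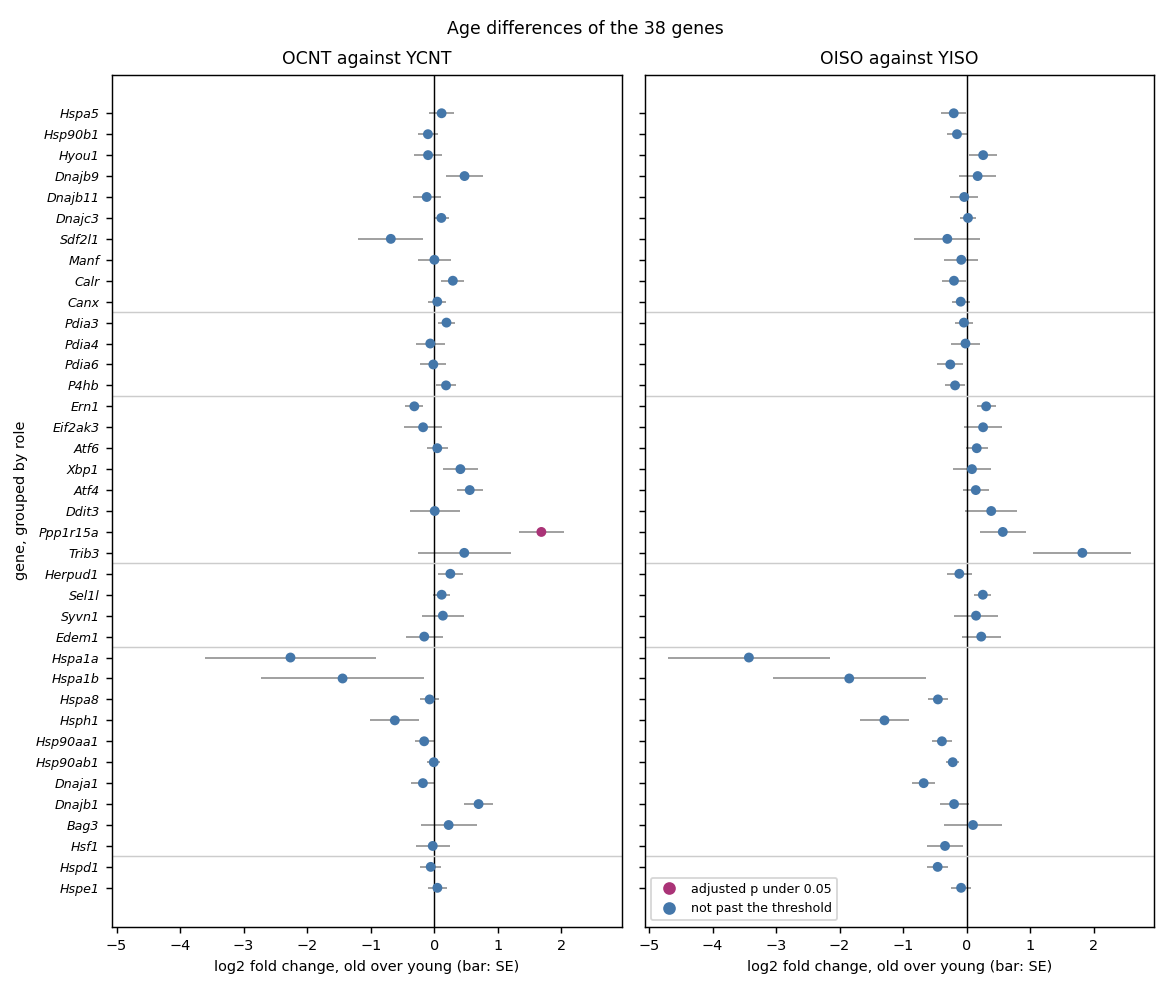
Log2 fold change of old over young (horizontal axes, bars are SE) for the 38 genes (vertical axis, grouped by role), left in unjoined mice (OCNT against YCNT) and right in isochronic mice (OISO against YISO). Ppp1r15a at left is the 1 gene past the threshold; in isochronic mice 9 of the 10 cytosolic heat shock genes lie left of 0.

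The cytosolic heat shock genes stood high in 3 libraries. Their summed level was 12280 CPM in YISOB6 replicate 2, 9861 in YB6CNT replicate 1 and 8760 in OHETB6X replicate 1, against 5551 to 7862 in the other 26. YISOB6 replicate 2 was the highest of 29 libraries for 6 of the 10 genes and among the 2 highest for 8, and it was the highest for 7 of the 26 ER genes. Title and description met for YISOB6 replicate 2 and YB6CNT replicate 1.

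Hsp90ab1, the constitutive cytosolic HSP90, had the highest mean level of the members (2684 CPM) and varied least between libraries. It was 2653, 2448, 2345 and 3005 CPM in OCNT against 2167 to 3040 with a median of 2602 in YCNT. It was 2602, 3927, 2689 and 2594 in YISO, 2982 and 2675 in YHET, 2333 to 2895 with a median of 2481 in OISO, 2695, 2430, 2774 and 2661 in OHET, and 2987 and 2791 in OHETX. Outside YISOB6 replicate 2 (3927) all libraries lay between 2167 and 3040. Its age differences were -0.01 (SE 0.10) in unjoined and -0.22 (SE 0.10, adjusted p 0.347) in isochronic mice.

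In isochronic mice 9 of the 10 cytosolic heat shock genes had a negative and 1 a positive age difference, with a median of -0.42 against 0.003 over all genes, and 6 had an unadjusted p under 0.05 but none was called. Dnaja1, an HSP40 that hands clients to HSP70, was 465.7, 1147, 625.1 and 385 CPM in YISO against 398 to 482 with a median of 446 in OISO. The old libraries were close together and inside the wide young range. Dnaja1 gave -0.68 (SE 0.19, adjusted p 0.0609) and was called by DESeq2 (adjusted p 0.0184). Hsph1, the HSP110 exchange factor of HSP70, was 59.6, 432, 163 and 57.1 in YISO against 63.0 to 114 with a median of 80.6 in OISO, a difference of -1.30 (SE 0.38, adjusted p 0.092).

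Hspa8, the constitutive HSP70, was 1792, 3557, 2341 and 1611 CPM in YISO against 1591 to 2017 with a median of 1786 in OISO, and gave -0.45 (SE 0.16, adjusted p 0.159). In all 3 genes 2 YISO libraries stood above the OISO range and the other 2 within or below it. Without YISOB6 replicate 2 the difference was -0.33 (SE 0.18, adjusted p 0.543) for Dnaja1 and -0.62 (SE 0.41, adjusted p 0.624) for Hsph1, the median of the 10 genes was -0.25, and 0 of them had an unadjusted p under 0.05. Without YB6CNT replicate 1 as well, an alternative chosen after seeing the data, the values were -0.24 and -0.37 and the median -0.19.

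**Figure D4:**
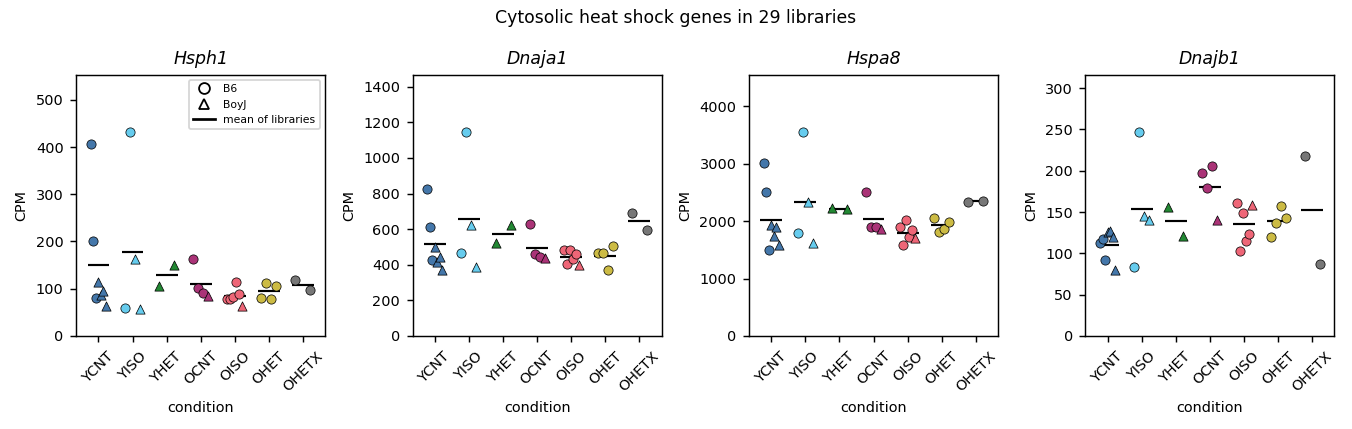
CPM (vertical axes) of Hsph1, Dnaja1, Hspa8 and Dnajb1 in the 7 conditions (horizontal axes), 1 point per library, circles B6, triangles BoyJ, bars the mean of libraries. The highest point of each panel is YISOB6 replicate 2; for Dnajb1 the 4 OCNT libraries, at 140 to 206 CPM, lie above all 7 YCNT libraries.

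Dnajb1, the HSP40 that pairs with inducible HSP70 and a heat shock factor target, was the cytosolic member with the largest positive age difference in unjoined mice. It was 198, 180, 206 and 140 CPM in OCNT, above all YCNT libraries (79.6 to 127, median 117), without overlap and including the BoyJ library. The difference was 0.70 (SE 0.22, adjusted p 0.117), past the threshold with limma-voom or when only these conditions were fitted. The share of all genes that separated OCNT from YCNT was not counted, so the lack of overlap is not read as a result about Dnajb1. In joined mice the order was not kept: YISO libraries were at 83.3, 247, 145 and 141 CPM and OISO at 103 to 161 with a median of 136, a difference of -0.20 (SE 0.23). The difference between the age effects was -0.90 (SE 0.31, adjusted p 0.899). Over the 10 genes, 2 were positive and 8 negative in unjoined mice, with a median of -0.12.

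Young isochronic against young unjoined libraries gave 9 of 10 cytosolic genes a positive difference with a median of 0.19 against -0.01 over all genes; without YISOB6 replicate 2 it was 6 of 10 with a median of 0.01. BoyJ against B6 libraries gave 8 of 10 a negative difference with a median of -0.30, among them Hsph1 at -0.98 (SE 0.28, adjusted p 0.457). Without YISOB6 replicate 2 and YB6CNT replicate 1, both of them B6, the strain difference had a median of -0.08, with 4 of 10 positive.

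The inducible HSP70 genes Hspa1a and Hspa1b, near-identical neighbours on chromosome 17 whose reads may be divided between them arbitrarily, were close to the limit of detection in most libraries. Hspa1a had no counts in 7 libraries and Hspa1b in 3; a count of 0 allows up to 3 counts, between 0.107 and 0.245 CPM at the depth of these libraries, for counting error only. The highest levels of both were in OHETB6X replicate 1, at 19.4 and 23.4 CPM (142 and 171 counts). The other OHETX library had 0 and 1.84 CPM. Bag3 was 92.0 CPM in OHETB6 replicate 4 and 55.1 in OHETB6X replicate 1, against at most 26.4 elsewhere. Hsf1 itself stayed between 15.99 and 45.3 CPM, with age differences of -0.02 (SE 0.27) and -0.34 (SE 0.28).

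Other cytosolic heat shock and co-chaperone genes were tested as 31. The polyubiquitin gene Ubb rose with age in unjoined mice by 0.49 (SE 0.11, adjusted p 0.0118), and Ahsa1, the activator of HSP90, fell by 0.87 on the log2 scale in isochronic mice (SE 0.23, adjusted p 0.0443). Their medians were -0.07 and -0.17. Of the cytosolic chaperonin and prefoldin genes, 13 were tested and 0 were called for age in either setting, with medians of -0.04 and -0.27.

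The mitochondrial chaperonin folds proteins imported into mitochondria, with Hspd1 as the chamber and Hspe1 as its lid. Hspd1 was 534, 540, 426 and 723 CPM in OCNT against 470 to 780 with a median of 539 in YCNT, and 547, 951, 624.6 and 440 in YISO against 426 to 505 with a median of 477 in OISO. It was 612 and 653 in YHET, 642, 460, 456 and 468 in OHET, and 751 and 584 in OHETX. The top library was again YISOB6 replicate 2. Hspd1 gave -0.06 (SE 0.16) with age in unjoined and -0.46 (SE 0.17, adjusted p 0.184) in isochronic mice; Hspe1 gave 0.05 (SE 0.15) and -0.09 (SE 0.16). The models of these genes overlap at their shared start, and the strand setting of the counting is not given in the sources used here, so reads from the overlap cannot be assigned with certainty.

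Manf, a small secreted protein of the ER that is induced by ER stress and binds BiP, had its 2 highest levels in old cells lodged in young marrow. It was 47.5 and 52.3 CPM in OHETX, against 33.8, 10.6, 20.3 and 13.7 in OHET and 19.1 to 28.8 with a median of 20.0 in OISO. Both OHETX values were also above the 39.4 CPM that was the highest of the other 27 libraries. How many of all genes had such an order was not counted. The difference was 1.34 (SE 0.34, adjusted p 0.0783) against OHET and 1.15 (SE 0.31, adjusted p 0.1) against OISO, neither past the threshold; DESeq2 gave 1.36 (adjusted p 0.00941) and 1.15 (adjusted p 0.0273).

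Some markers of other cell types were also high in 1 of the 2 OHETX libraries. The neutrophil and granulocyte progenitor sum was 2612 CPM in OHETB6X replicate 1 and 93.5 in replicate 2, and the B cell sum 53.5 and 11.0, against 9.09 to 31.8 for B cell markers in the other 27 libraries. The plasma cell sum was 8.34 and 51.1 CPM, the latter mostly Prdm1 (49.4), against 0.038 to 30.9 in the other 27. Of the 5 plasma cell markers tested, 1 was positive and 4 negative against OHET, with a median of -2.82. Any part of other cell types in the Manf values was not tested. Without replicate 1 the difference from OHET was 1.42 (SE 0.42, adjusted p 0.15), a fit in which the spread of OHETX is taken from the other conditions. The result depended on the labels: with columns matched by the description the difference was 0.44 against OHET and -0.008 against OISO. In the authors' deposited tables Manf had a log2 fold change of -0.77 for OHET against OHETX, with an authors' adjusted p of 0.183. For OISO against OHETX it had -0.76 and 0.182. Manf was thus higher in lodged cells in both, past the threshold in neither. Which labels those values rest on was not tested.

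Several other members had both OHETX libraries above all 4 OHET libraries, none of them called. Hspa8 was 2340 and 2358 CPM against at most 2046 in OHET, a difference of 0.29 (SE 0.21), and Dnaja1 693 and 597 against at most 506, a difference of 0.51 (SE 0.24, adjusted p 0.348). Pdia3, Pdia6 and Hsp90ab1 also did not overlap with OHET. Hspa8, Dnaja1 and Hspd1 stood above all OISO libraries, while Ern1 stood below them (means of 90.8 against 107 CPM). With so few libraries some genes separate by order alone. The share of all genes that did so was not counted, so these separations are not read as a result about the members. Other members were high in 1 of the 2 libraries. Hspa5 was 786 and 453 CPM, Dnajb9 188 and 52.1, Atf4 177 and 101, Ppp1r15a 182 and 68.5 and Dnajb1 218 and 86.9, in each case with the higher value in replicate 1. That library had the lowest depth, the highest neutrophil marker sum and a high immediate early sum; their part in these values was not tested. Of the 26 ER members 19 were positive and 7 negative against OHET, with a median of 0.18, and of the cytosolic genes 9 and 1, with a median of 0.24, against -0.05 over all genes. Without OHETB6X replicate 1 the cytosolic genes were 6 of 10 positive with a median of 0.06. Of the 40 other ER genes 1 rose against OHET, beside 0.218% of all genes called: Creb3l2, which encodes an ER membrane-bound transcription factor. The edgeR difference was 1.19 (SE 0.26, adjusted p 0.0478) against OHET. Against OISO, where 0.187% of all genes were called, it was 1.29 (SE 0.24, adjusted p 0.0186). Both OHETX libraries had labels that named different columns. No value of Creb3l2 with columns matched by the description is given here.

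**Figure D5:**
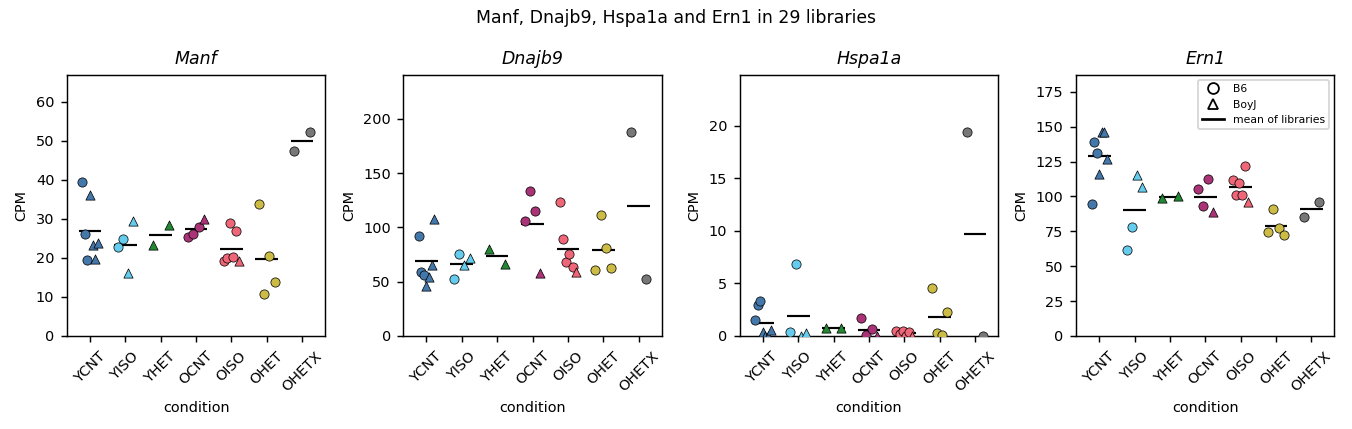
CPM (vertical axes) of Manf, Dnajb9, Hspa1a and Ern1 in the 7 conditions (horizontal axes), 1 point per library, circles B6, triangles BoyJ, bars the mean of libraries. Both OHETX points are the highest of the Manf panel, at 47.5 and 52.3 CPM, while Dnajb9 and Hspa1a are high in 1 OHETX library; the 4 OHET points of Ern1 lie below the 6 OISO points.

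With no member called for the age of the partner, its lists are described by their medians. In old mice the 26 ER members had a median difference of -0.04 for OHET against OISO (10 positive, 16 negative) and the cytosolic genes 0.05 (8 and 2), against 0.03 over all genes. In young mice the ER members had a median of 0.19 for YHET against YISO (18 and 8), and 8 of 8 signalling genes were positive with a median of 0.30, against -0.03 over all genes, with none called and 2 YHET libraries behind the values. Joining itself gave the ER members medians of -0.11 in young mice (10 positive, 16 negative) and -0.07 in old mice (7 and 19), against -0.01 and 0.01 over all genes.

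The authors' deposited tables hold 11 comparisons of their own. In the authors' deposited table of young against old isochronic cells Dnaja1 had a log2 fold change of 0.61 and an adjusted p of 0.0452, and in the authors' deposited table of old isochronic against lodged cells Hspa1a had -1.28 and 0.0468. In the other 9 of the authors' deposited tables no member had an adjusted p under 0.05. None of these 11 comparisons sets old against young unjoined cells, the comparison in which Ppp1r15a was called.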

How the data were processed

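RNA of sorted mouse haematopoietic stem cells was measured in 30 samples of 11 label groups, read here as 7 conditions and a strain term. The deposited table holds estimated counts per gene, by the authors. The submitters' processing notes name Salmon, which estimates counts, FastQC, MultiQC, DESeq2 and build GRCm38, with no versions or roles. Estimated counts were rounded to whole numbers. The deposited comparison tables hold the authors' log2 fold changes and adjusted p-values, quoted only where named.

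Of 30 columns, 29 were used, matched by the code in the sample title; 1 was not used, since its code stands in no title. Counts were fitted in 1 model with edgeR 4.0.16 (R 4.3.3): TMM factors, a filter on low counts by condition, robust quasi-likelihood F-tests, 21 residual degrees of freedom, and Benjamini-Hochberg adjustment over 16068 genes. CPM are counts scaled to the library total with TMM factors. DESeq2 1.42.0, limma 3.58.1 (voom), other scalings, filters, sample sets and each library left out in turn were alternatives. The closest libraries within a condition, those of OB6CNT, gave a chi-square per degree of freedom of 23.9 to 25.2, above counting error alone. Separate libraries of 1 mouse or pool could also give such values, so the check cannot show that libraries are independent. Each library was counted as 1 sample by assumption. The fitting was tested on simulated data, after the real counts had first been fitted. Gene positions and exon lengths come from GENCODE (GRCm38), promoters from RefSeq (GRCm38.p6).

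The members and lists were chosen with earlier results of these data known. Values by library (in conditions of over 5 libraries the lowest, median and highest) are given for members called and, for each role without one, for the member with the highest mean CPM; of other lists, up to 4 called genes are named. Replicate numbers were given here in accession order, since the labels carry none, and pair no libraries. Members shown by library beyond that rule (Atf4, Ern1, Hspa5, Dnajb9, Dnaja1, Hsph1, Hspa8, Dnajb1, Manf and the HSP70 pair) and the sequence elements shown were chosen after values were seen. Hspa1a's promoter, which the rule for sequences also listed, held no match and is not shown.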

Additional observations from a re-analysis of the deposited data

Results flagged for a closer look

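In groups of 4 to 10 libraries, the distance of the highest or lowest library from its neighbour was compared with the range of the group. Of 190 such groups of member values 20 were past Dixon's limit, beside a nominal 5%, or 9.5. That rate holds for independent values with a normal distribution. The CPM were not put on a log scale and the groups share libraries, so 20 beside 9.5 is not read as an excess. The values are in CPM, with the range of the other libraries of the condition.

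YB6CNT replicate 1 stood above the other YCNT libraries for 6 members: Hsph1 at 406 (others 63.9 to 201), Hsp90aa1 at 2402 (1233 to 1624), Hspa1b at 11.4 (0 to 3.1), Dnajc3 at 267 (190 to 210), Sdf2l1 at 14.5 (4.34 to 8.21) and P4hb at 216 (148 to 176). YISOB6 replicate 2 stood above the other YISO libraries for Hsp90ab1 at 3927 (2594 to 2689), P4hb at 287 (159 to 169) and Hspa1a at 6.84 (0 to 0.349). Both are young B6 libraries.

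OB6CNT replicate 1 stood above the other OCNT libraries for Hspa8 at 2512 (1863 to 1900), Dnaja1 at 630 (439 to 458) and Hspa1b at 5.4 (0.152 to 0.323). OHETB6 replicate 1 stood above the other OHET libraries for Hspd1 at 642 (456 to 468) and Hspa1b at 7.88 (0 to 0.692).

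Single members stood apart in 6 other libraries. Ppp1r15a was 85.9 in YBJCNT replicate 4 (others 34.2 to 54.1) and 113 in OISOB6 replicate 1 (41.5 to 67.5). Atf4 was 81.3 in OBJCNT replicate 1, below the other OCNT libraries (151 to 163). Atf6 was 120 in OB6CNT replicate 3 (100 to 102), Pdia6 96.1 in OISOB6 replicate 3 (61.4 to 72.9) and P4hb 184 in OHETB6 replicate 3 (151 to 153).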

How the results depend on the processing

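The number of the 38 members called was 0 in every alternative run for joining in young mice, for the partner's age in old or young mice and for the difference between the age effects. For age in unjoined mice (1 called) it was 4 with limma-voom, 2 with only the conditions compared, 2 in B6 libraries alone, 0 without the 3 OB6CNT libraries and 1 to 2 with 1 library left out (2 without YISOB6 replicate 2 or OBJCNT replicate 1). For age in isochronic mice (0) it was 1 with DESeq2 and 0 to 2 with 1 library left out (Dnaja1 without YB6CNT replicate 3, and Dnaja1 and Hsph1 without YISOB6 replicate 1 or YISOBJ replicate 2). For joining in old mice (0) it was 2 with limma-voom, 1 in B6 libraries alone and 0 to 1 with 1 library left out (OBJCNT replicate 1). For lodged cells (0 and 0) it was 1 against OHET and 2 against OISO with DESeq2, and 0 to 1 in both with 1 library left out (OHETB6 replicate 1 and OHETB6X replicate 2). For strain (0) it was 1 with DESeq2. For any difference among conditions (1) it was 6 with DESeq2, 3 with limma-voom, 2 without the strain term, 3 in B6 libraries alone, 0 without the 3 OB6CNT libraries, 2 without YB6CNT replicate 1 and YISOB6 replicate 2, and 0 to 4 with 1 library left out (0 without OB6CNT replicate 2, 4 without YISOB6 replicate 1, and 2 without YB6CNT replicate 1, YISOBJ replicate 1 or 2, OBJCNT replicate 1, or OHETB6 replicate 1 or 2). The cause of these differences between settings was not tested.

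Ppp1r15a in unjoined mice gave 1.48 to 2.14 with each library left out in turn and -0.001 without the 3 OB6CNT libraries; its adjusted p ran from 9.4e-05 to 1 and was under 0.05 in 39 settings. Dnaja1 in isochronic mice ran from -0.87 to -0.24, with an adjusted p of 0.016 to 0.624, and Hsph1 from -1.65 to -0.37, with 0.0136 to 0.781. Manf against OISO was -0.008 with columns matched by description. Lodged cells gave no value in the 19 columns on which both labels meet, the partner contrast in young mice gave none in B6 libraries, and strain gave none where the term was dropped. Matching by description was run on 29 columns in place of the 30 planned. No paired analysis was possible because the labels carry no replicate numbers, and those used here only name libraries in accession order. Depth limits the low members, Hspa1a, Hspa1b, Trib3, Ddit3 and Sdf2l1.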
